A study of Mus musculus with 6 samples.

Results

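The carboxylesterases of the Ces1 and Ces2 families were followed as 10 listed genes, of which 9 had a row among the 24434 gene symbols of the deposited count table. These were Ces1c, Ces1d, Ces1e, Ces1f and Ces1g of the first family and Ces2b, Ces2c, Ces2e and Ces2g of the second, and Ces2a was not analysed here. The members were found by their symbols. They were selected on the db/db against db/m values of these same libraries, so their levels and fold changes are given as a description, without a test. Polyadenylated RNA of whole mouse kidney was measured by strand-specific sequencing in 3 db/db libraries and 3 db/m libraries, all from mice on normal chow. The db allele disrupts the leptin receptor gene: db/db mice carry it on both chromosomes and become obese and diabetic, while db/m mice are the lean controls, which usually carry a single copy. The sources used here do not give sex, age or strain. They also do not state that the libraries came from different animals, so an SD or p-value covers only the spread between libraries.

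Carboxylesterases are serine hydrolases that cut ester, thioester and amide bonds in fats, drugs and toxins. Most are held in the lumen of the endoplasmic reticulum by a short signal at the end of the protein, which is read by the KDEL receptors. In mice both families were expanded by gene duplication into tandem clusters of near copies, and in the kidney these enzymes are known chiefly from the epithelium of the proximal tubule. Ces1d is best known as a triacylglycerol hydrolase that supplies fat for lipoprotein assembly in liver, Ces1f acts on lipid droplet fat in mouse liver, and Ces1g limits fat accumulation there. Ces1e is egasyn, which anchors beta-glucuronidase in the endoplasmic reticulum, and Ces1c is the secreted esterase of mouse plasma. Ces2c hydrolyses acylglycerols and drug esters in liver and intestine.

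The sequences show what separates these near copies and what they have in common. The last 18 bases of each coding sequence, stop codon included, are given below for the 9 measured members from the longest protein-coding transcript in GENCODE vM21, because they hold the retention signal. Capitals mark codons for histidine, any residue, glutamate and leucine just before the stop.
Ces1c: cacacagaacacaaatga
Ces1d: gaaCATGTTGAGCTCtga
Ces1e: gaaCACACTGAGCTGtga
Ces1f: tacCACAATGAGCTGtga
Ces1g: gaaCATGTTGAACTGtga
Ces2b: aagCACACGGAGCTTtag
Ces2c: aagCACAGGGAGCTTtag
Ces2e: aggCACAAAGAGTTGtag
Ces2g: gtgCACAAAGAGCTAtag

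These codons were found in 9 of the 10 listed genes, Ces2a among them, and the exception was Ces1c. The catalytic serine was looked for as in-frame codons for glycine, glutamate, serine, alanine, glycine and glycine. That pattern was found in 8 of the 10 genes and was not found, with these letters, in Ces1c or Ces2a. The 27 bases around it are shown for 6 members that span the range of responses, with the serine codon in capitals.
Ces1d: atctttggagagTCAgcaggaggtttc
Ces1f: atctttggagagTCAgcaggaggttac
Ces1g: atcttcggcgagTCAgcaggaggtgaa
Ces2b: atttttggcgagTCTgcaggtggcaca
Ces2c: atttttggcgagTCTgcaggtggcaca
Ces2g: atttttggcgagTCAgcaggaggcata
The 27 bases of Ces2b and Ces2c differed at 0 bases, those of Ces1d and Ces1f at 1 and those of Ces1d and Ces1g at 5. Counted from the start codon, the serine stood at codon 221 in Ces1d, Ces1f and Ces1g, at codon 225 in Ces2b, at codon 230 in Ces2c and at codon 229 in Ces2g.

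Coding sequences of the 10 listed genes fell into their families. Aligned bases were 75.6% to 81.8% identical in the 10 pairs within Ces1 and 81.6% to 92.1% identical in the 10 pairs within Ces2. The 25 pairs across families shared 64.5% to 67.4%. The closest pair was Ces2b with Ces2c, and within Ces1 it was Ces1d with Ces1g. How far reads could be misassigned was described by the share of stretches in a member's transcript that occur unchanged in transcripts of another gene. For stretches of 50 bases this share was 42.2% in Ces2c, mainly with the pseudogene Ces2d-ps, 17.0% in Ces1c, mainly with Ces1b, and 9.56% in Ces2b, mainly with Ces2c. It was 3.95% or less in Ces1d, Ces1e, Ces1f, Ces1g, Ces2e and Ces2g. At 100 bases Ces2c still shared 16.0%, Ces1c 1.39% and Ces2b 0.091%, and the other 6 measured members shared 0. Counts of Ces2c, Ces1c and Ces2b are therefore less certain than those of the other members, since the sources used here do not say how shared reads were counted.

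**Figure D1:**
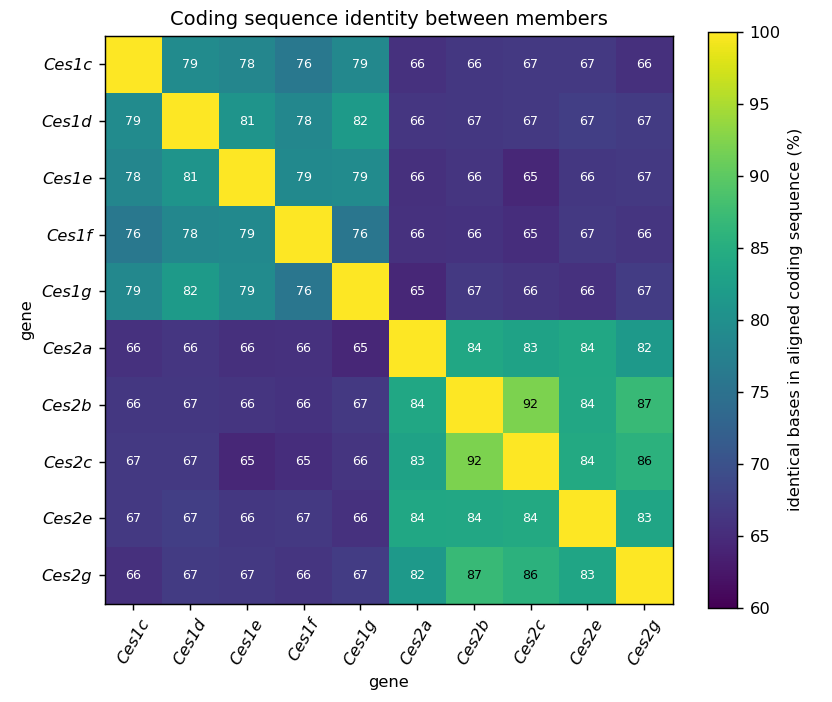
Percent of identical bases in aligned coding sequences, drawn as a colour scale for each pair of the 10 listed genes, with genes on both axes and values rounded to whole percents in the cells. Both families form blocks, and the brightest pair off the diagonal is Ces2b with Ces2c, at 92.1%.

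Depth was alike between the genotypes, with total counts of 27023129 to 29868789 in the db/db libraries and 25937756 to 35931140 in the db/m libraries. Levels below are CPM, that is counts scaled to a common library size with TMM factors, which correct for composition and ran from 0.901 to 0.923 in db/db and from 1.06 to 1.12 in db/m. A count of 0 allows a level of up to 3 counts, or 0.110 to 0.120 CPM in db/db and 0.0759 to 0.109 CPM in db/m, for counting error only. This bound takes each fragment as 1 count, and is too low if fragments add more. All 9 measured members passed the filter on low counts, which kept 16373 genes. Over those genes the median log2 fold change of db/db over db/m was -0.06. At an adjusted p below 0.05, 13.1% were higher and 10.8% lower in db/db (edgeR's quasi-likelihood test, Benjamini-Hochberg). With total counts only, 1072 were higher and 4883 lower.

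The members Ces1f, Ces1g, Ces2b and Ces2c, stood above db/m in every db/db library, and Ces2g stood below. The groups overlapped for Ces1c, Ces1d, Ces1e and Ces2e. Thus 4 of 9 members lay wholly above and 1 of 9 wholly below, where 22.4% of all tested genes lay wholly above and 22.2% wholly below. As this contrast chose the members, nothing is read from the difference between those shares.

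Ces1f was the most abundant carboxylesterase of the db/db kidneys. It was at 1041, 1212 and 1043 CPM in db/db replicates 1 to 3, against 129, 104 and 192 CPM in db/m replicates 1 to 3. The lowest db/db library was thus far above the highest db/m library. The means were 1098 ± 98.0 CPM in db/db and 141 ± 45.4 CPM in db/m (SD, n = 3 each), a log2 fold change of 2.96 (SE 0.23), which in linear terms is 7.77-fold.

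Ces1g, scarce in db/m, had the largest fold of the family. It had 1189, 1281 and 1254 counts in db/db, against 51, 0 and 21 counts in db/m. In CPM these were 47.7, 50.8 and 45.8 in db/db and 1.85, 0 and 0.676 in db/m. The db/db libraries lay close together, while the db/m libraries ranged from no count in replicate 2 to the highest level in replicate 1. Its fitted log2 fold change of 5.94 (SE 0.79) therefore leaned on single db/m libraries, and was 7.29 with db/m replicate 1 left out and 5.27 with db/m replicate 2 left out.

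Ces2c carried most of the Ces2 signal in both genotypes. It was at 493, 474 and 520 CPM in db/db and at 169, 168 and 127 CPM in db/m. The groups were far apart relative to their spread, with means of 496 ± 23.3 CPM in db/db and 154 ± 23.6 CPM in db/m (SD, n = 3 each). The log2 fold change was 1.68 (SE 0.13).

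Ces2b, the nearest copy of Ces2c, was much scarcer. It was at 16.6, 14.2 and 17.7 CPM in db/db and at 1.31, 1.21 and 0.837 CPM in db/m, from 358 to 484 counts in db/db and 26 to 48 counts in db/m. Its log2 fold change was 3.84 (SE 0.22), larger than that of Ces2c. The ratio of Ces2b to Ces2c counts within a library was 0.0336, 0.0299 and 0.0340 in db/db, against 0.0078, 0.0072 and 0.0066 in db/m. The Ces2b counts were therefore not a fixed fraction of the Ces2c counts across genotypes, although within each genotype the ratio varied little.

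Ces2g was the single member with all db/db libraries below all db/m libraries. It was at 4.58, 5.31 and 3.54 CPM in db/db and at 10.2, 5.67 and 6.96 CPM in db/m. Db/db replicate 2 and db/m replicate 2 lay next to each other, so the gap between the groups was narrow. The log2 fold change was -0.76 (SE 0.27), and ran from -0.94 to -0.48 when libraries were left out.

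Ces1d, the abundant lipoprotein-linked hydrolase, overlapped between the genotypes. It was at 405, 565 and 461 CPM in db/db and at 637, 362 and 596 CPM in db/m, and its log2 fold change was -0.16 (SE 0.22). Ces1e, or egasyn, was at 101, 146 and 99.2 CPM in db/db and at 151, 54.9 and 88.7 CPM in db/m, with 0.24 (SE 0.34) on the log2 scale. For both genes db/db replicate 2 was the highest db/db library, and db/m replicates 1 and 2 were the extremes of db/m.

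Ces2e was at 15.9, 13.7 and 12.3 CPM in db/db and at 15.1, 9.72 and 17.7 CPM in db/m, a log2 fold change of -0.02 (SE 0.22). Its db/db values lay within the range of db/m. Ces1c was scarce throughout, with 11, 14 and 9 counts in db/db and 17, 9 and 0 counts in db/m. Its log2 fold change of 0.68 (SE 0.90) was smaller than its error. The fits of Ces1d, Ces1e and Ces2e took either sign in other settings, from -0.42 to 0.01, from -0.05 to 0.70 and from -0.28 to 0.26, so no direction is given for them.

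**Figure D2:**
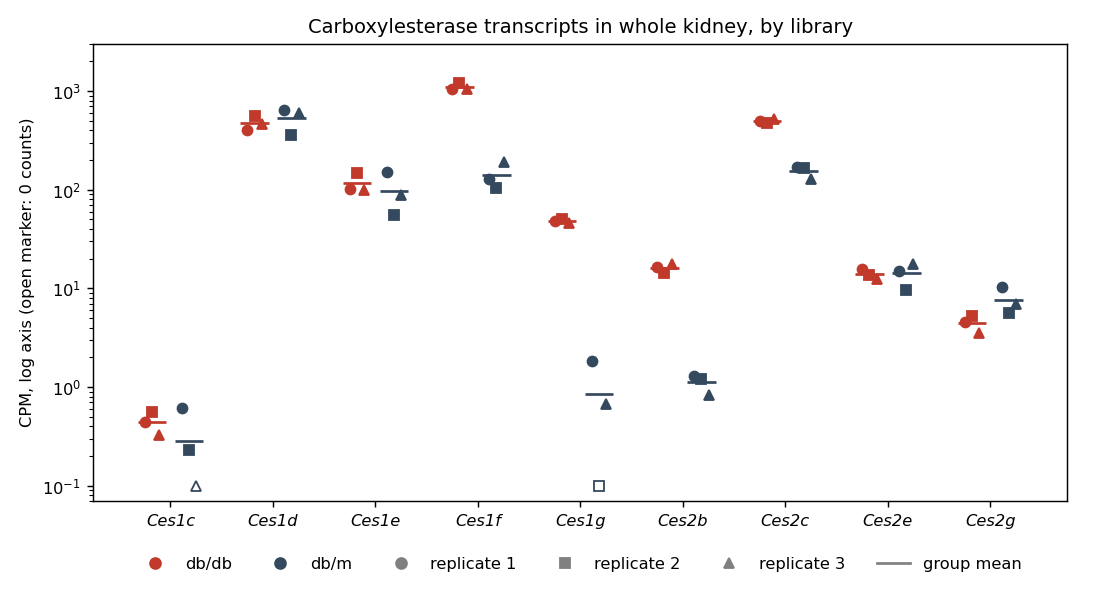
Level of each measured member in every library, in CPM on a log axis, with db/db (red) left of db/m (dark blue) for each gene; marker shapes are replicates, short lines are group means, and open markers at the bottom are libraries with 0 counts. The groups are apart for Ces1f, Ces1g, Ces2b and Ces2c, narrowly apart in the other direction for Ces2g, and overlap for the remaining 4.

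**Figure D3:**
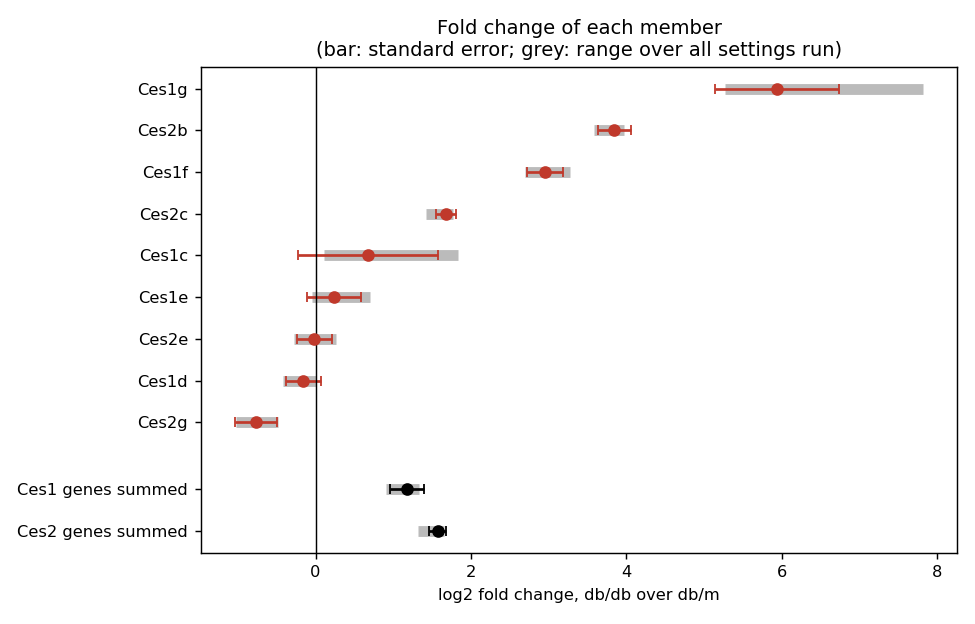
Log2 fold change of db/db over db/m for the 9 measured members and for both family sums, with bars for the standard error and grey bands for the range over all alternative settings. Ces1g has the largest fold and the widest band, and the bands of Ces1d, Ces1e and Ces2e cross 0.

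The members of a family did not move together, so its make-up differed between the genotypes. Ces1d made up 25.4%, 28.6% and 28.0% of the summed CPM of 8 Ces1 genes in db/db, against 69.3%, 69.5% and 67.9% in db/m. Ces1f made up 65.2%, 61.4% and 63.2% in db/db, against 14.0%, 19.9% and 21.9% in db/m. Thus Ces1f led in every db/db library and Ces1d in every db/m library. The ratio of Ces1f to Ces1d counts was 2.57, 2.14 and 2.26 in db/db and 0.202, 0.286 and 0.322 in db/m. This ratio does not depend on how libraries are scaled. By contrast the ratio of Ces1e to Ces1d counts overlapped, at 0.242 ± 0.0234 in db/db and 0.179 ± 0.0499 in db/m (SD, n = 3 each). Ces1g contributed 2.78% ± 0.210 in db/db and 0.0929% ± 0.102 in db/m, and Ces1e 6.60% ± 0.729 in db/db and 12.3% ± 3.51 in db/m. The levels of Ces1d and Ces1e themselves overlapped between the genotypes, unlike their shares.

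In the Ces2 family the leading gene was the same in both genotypes. Ces2c made up 93.0% ± 0.423 of the summed CPM of 6 Ces2 genes in db/db and 85.9% ± 4.34 in db/m (SD, n = 3 each). The shares of the minor members went opposite ways, but a share also falls when another member of the sum rises. Ces2b made up 3.02% ± 0.207 in db/db and 0.619% ± 0.07 in db/m. Ces2e made up 2.63% ± 0.388 in db/db and 8.09% ± 3.08 in db/m, and Ces2g 0.846% ± 0.204 in db/db and 4.24% ± 1.08 in db/m. The level of Ces2e itself hardly differed, at 14.0 ± 1.79 CPM in db/db and 14.2 ± 4.06 CPM in db/m.

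Adding up near copies keeps a total that reads assigned between the summed copies cannot change. Reads shared with genes outside a sum can still change it. Ces2d-ps, the main partner of Ces2c in shared stretches, and Ces2a were not among the 6 Ces2 genes. The 8 Ces1 genes together were at 1596, 1974 and 1649 CPM in db/db and at 920, 521 and 877 CPM in db/m, a log2 fold change of 1.17 (SE 0.22). The 6 Ces2 genes together were at 533, 509 and 557 CPM in db/db and at 197, 185 and 156 CPM in db/m, a log2 fold change of 1.57 (SE 0.11). Both sums were higher in every db/db library than in any db/m library.

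**Figure D4:**
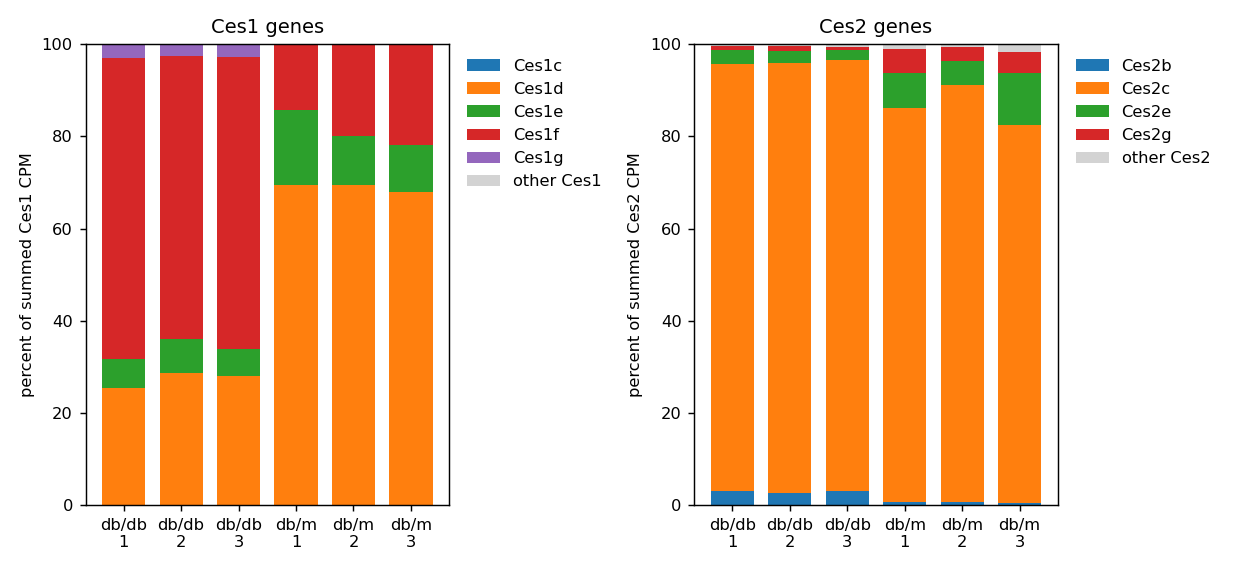
Share of each gene in the summed CPM of the Ces1 genes (left) and of the Ces2 genes (right), in percent, stacked for each library with db/db libraries left of db/m libraries. Ces1f fills 61.4% to 65.2% of the db/db bars and 14.0% to 21.9% of the db/m bars on the left, and Ces2c fills most of every bar on the right; Ces1c is too scarce to be seen.

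Levels of different members were compared per kilobase of transcript, using the same GENCODE transcripts for length. In db/db the order was Ces1f at 570 ± 50.9, Ces2c at 252 ± 11.8, Ces1d at 238 ± 40.6, Ces1e at 55.8 ± 12.8 and Ces1g at 20.1 ± 1.05 CPM per kilobase. Then came Ces2e at 5.18 ± 0.665, Ces2b at 4.74 ± 0.522, Ces2g at 1.57 ± 0.311 and Ces1c at 0.242 ± 0.0619 CPM per kilobase (SD, n = 3). In this order the ranges of neighbours overlapped for Ces2c with Ces1d and for Ces2e with Ces2b.

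In db/m the order per kilobase began with Ces1d at 265 ± 74.0, Ces2c at 78.4 ± 11.97, Ces1f at 73.5 ± 23.6 and Ces1e at 47.3 ± 23.4 CPM per kilobase. It went on with Ces2e at 5.25 ± 1.51, Ces2g at 2.66 ± 0.819, Ces1g at 0.353 ± 0.393, Ces2b at 0.329 ± 0.0732 and Ces1c at 0.154 ± 0.171 CPM per kilobase (SD, n = 3). The ranges overlapped for Ces2c with Ces1f, Ces1f with Ces1e, Ces1g with Ces2b and Ces2b with Ces1c, so those places are not settled. Ces1f was thus the leading member in db/db and in db/m could not be told apart from Ces2c or Ces1e.

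The libraries of a genotype also differed from each other across members. Among db/m libraries, replicate 1 was the highest for 7 of 9 members and replicate 2 the lowest for 6 of 9. Among db/db libraries, replicate 2 was the highest for 6 and replicate 3 the lowest for 5. Summed markers of the early proximal tubule segments S1 and S2 also were highest in db/m replicate 1 and lowest in db/m replicate 2 within their genotype, at 28886 and 21025 CPM. Distal nephron markers ran the other way in those libraries, at 4267 and 6155 CPM. Their part in the members' levels was not tested.

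Markers of other tissue compartments were summed beside the members. All 7 listed markers of S3, the last segment of the proximal tubule, were called higher in db/db, beside 13.1% of all tested genes. Their sum was 7643 to 8960 CPM in db/db and 2578 to 2941 CPM in db/m. It hides unequal differences. Slc27a2, the largest part, was at 4545 to 5131 CPM in db/db and 2201 to 2456 CPM in db/m. Acsm3 was at 728 to 1028 CPM in db/db and 14.1 to 20.3 CPM in db/m. The 15 listed S1 and S2 markers overlapped, with sums of 24884 to 28641 CPM in db/db and 21025 to 28886 CPM in db/m. Of these 1 was called higher and 3 lower, beside 13.1% and 10.8% of all tested genes. In bulk tissue, a difference in the number of cells of a type and one in RNA per cell cannot be told apart. The part of the S3 segment in the Ces levels was not tested.

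Liver and intestine are rich in carboxylesterases, so their markers were checked as well. The 20 hepatocyte markers summed to 2242 to 3022 CPM in db/db and 703 to 1191 CPM in db/m, of which Cyp2e1, a gene the kidney also expresses, supplied 1780 to 2668 CPM in db/db and 248 to 637 CPM in db/m. Of the 15 tested, 3 were called higher and 5 lower, beside 13.1% and 10.8% of all tested genes. Alb, the defining hepatocyte gene, was at 9.87, 10.6 and 4.53 CPM in db/db and at 16.9, 6.45 and 12.8 CPM in db/m, and its groups overlapped. The other most abundant markers beside Cyp2e1 went opposite ways. Ttr was at 240, 176 and 193 CPM in db/db and at 43.5, 34.3 and 3.99 CPM in db/m. Serpina1a was at 66.3, 47.7 and 65.3 CPM in db/db and at 226, 160 and 258 CPM in db/m. Of 8 enterocyte markers 6 had a row, and summed to 239 to 282 CPM in db/db and 158 to 226 CPM in db/m, mostly from Vil1, which the proximal tubule also expresses. Fabp2, the defining enterocyte gene, had counts at or below the floor in every library.

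Markers of fat were high in replicate 3 of both genotypes. The 11 adipocyte markers summed to 81.0, 76.0 and 464 CPM in db/db and to 98.6, 73.4 and 216 CPM in db/m, with Adipoq at 0.522, 0.0792 and 19.2 CPM in db/db and 1.34, 0.506 and 13.6 CPM in db/m. Without replicate 3 of both genotypes the log2 fold changes were 3.28 for Ces1f and 1.53 for Ces2c, against 2.96 and 1.68 over all libraries. The 12 leukocyte markers summed to 134 to 155 CPM in db/db and 75.4 to 219 CPM in db/m. The 12 distal nephron markers summed to 3416 to 5360 CPM in db/db and 4267 to 6155 CPM in db/m. Of these 1 was called higher and 4 lower by edgeR, beside 13.1% and 10.8% of all tested genes. Their median log2 fold change was -0.58. Of 7 adrenal cortex markers 6 had a row, with sums of 6.79 to 9.67 CPM in db/db and 5.41 to 10.4 CPM in db/m, and Cyp11b1 and Cyp21a1 were at 0 in every library.

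The remaining carboxylesterase genes were scarce in these kidneys. Of 10 listed, 7 had a row and 2 passed the filter, and Ces2d-ps, Ces3b and Ces5a were not analysed here. None of the 2 was called by edgeR's quasi-likelihood test, beside 13.1% higher and 10.8% lower of all tested genes. Of the 2, 0 had an unadjusted p below 0.05, and 0 were called by DESeq2. With 2 genes tested, the lack of calls says little about the remaining Ces genes. Ces2f was at 0.161, 0.158 and 0.438 CPM in db/db and 0.436, 0.456 and 0.386 CPM in db/m (log2 fold change -0.73, SE 0.49, edgeR adjusted p = 0.308). Ces2h was at 2.61, 1.86 and 3.03 CPM in db/db and 1.64, 0.658 and 2.45 CPM in db/m (log2 fold change 0.67, SE 0.47, edgeR adjusted p = 0.322). Ces1b, the main partner of Ces1c in shared stretches, had 0 counts in each db/db library and 11, 9 and 0 counts in db/m. Ces1h had 8, 4 and 0 counts in db/db and 0 in each db/m library. Ces1a, Ces3a and Ces4a had 7 counts or fewer in any library.

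All the listed Ces genes lie on chromosome 8 in 2 clusters, one of 9 genes from Ces1a to Ces5a and one of 11 genes from Ces2a to Ces4a, by the order of the RefSeq gene table. Protein-coding genes on either side of each cluster were tested to see whether a difference ran past the clusters. Of 11 such genes 9 passed the filter, and their median log2 fold change was -0.0045. Over all tested genes edgeR called 13.1% higher and 10.8% lower. It called none of these 9, but 9 genes are too few to show that no difference ran past the clusters. DESeq2 called 1 of the 9, where it called 4821 of all 16373 tested genes, and 1 had an unadjusted p below 0.05. That gene was Rrad, which encodes a small GTP-binding protein, at 2.97, 4.68 and 4.02 CPM in db/db and 6.87, 6.35 and 5.80 CPM in db/m (log2 fold change -0.70, SE 0.21, edgeR adjusted p = 0.0516, DESeq2 adjusted p = 0.0206). Cdh16, the kidney-specific cadherin near the Ces2 cluster, was at 852 ± 28.1 CPM in db/db and 854 ± 129 CPM in db/m (SD, n = 3 each). The other tested neighbours, Lpcat2, Gnao1, Nudt21, Ciao2b, Cbfb, D230025D16Rik and B3gnt9, had log2 fold changes from -0.41 to 0.45 and were not called. Slc6a2 and Capns2 were filtered out for low counts. Slc6a2, the noradrenaline transporter gene, was at 0 in every db/db library and at 0.253 ± 0.0265 CPM in db/m (SD, n = 3), and was called lower without the filter (edgeR adjusted p = 0.0439).

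Sequences just before the gene start are shown for 3 members from different parts of the range, Ces1g and Ces2c with higher levels and Ces2g with lower levels in db/db. They are the 250 bases upstream in the RefSeq promoter table of GRCm38.p6, at chr8:93337210-93337459 on the minus strand for Ces1g, chr8:104846818-104847067 on the plus strand for Ces2c and chr8:104961468-104961717 on the plus strand for Ces2g, read 5′ to 3′ along the gene. Capitals mark matches to the motifs named after them.
Ces1g: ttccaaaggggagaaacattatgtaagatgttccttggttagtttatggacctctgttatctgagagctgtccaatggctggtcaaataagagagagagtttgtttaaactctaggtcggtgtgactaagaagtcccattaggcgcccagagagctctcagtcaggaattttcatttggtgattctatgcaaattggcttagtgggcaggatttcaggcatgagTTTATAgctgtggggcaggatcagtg
Ces2c: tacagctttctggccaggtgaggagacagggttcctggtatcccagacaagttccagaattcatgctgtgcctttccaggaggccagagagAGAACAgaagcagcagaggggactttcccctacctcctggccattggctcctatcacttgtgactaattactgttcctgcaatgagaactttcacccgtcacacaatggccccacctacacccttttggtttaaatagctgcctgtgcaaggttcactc
Ces2g: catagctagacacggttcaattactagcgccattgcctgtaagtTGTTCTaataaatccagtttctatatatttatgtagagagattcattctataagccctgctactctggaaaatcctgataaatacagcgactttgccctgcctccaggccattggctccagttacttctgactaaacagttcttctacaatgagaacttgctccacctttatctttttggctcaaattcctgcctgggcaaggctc

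Matches were searched on both strands in the 7 listed genes with an entry, namely Ces1c, Ces1e, Ces1g, Ces2a, Ces2c, Ces2e and Ces2g. The TATA box TATAAA was found in Ces1g alone, on the opposite strand, and in 12.4% of 32851 promoters of the same length. The steroid receptor motif TGTTCT was found once in Ces2c, on the opposite strand, and once in Ces2g, and in 16.1% of all promoters. The nuclear receptor motif AGGTCA was found in Ces2a alone and in 14.0% of all promoters. The HNF1 motif GTTAAT and the STAT motif TTCNNNGAA were in none of the 7, and in 6.43% and 7.02% of all promoters. Such matches describe letters and are not evidence of binding.

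Transcription factors known to act on carboxylesterase genes went both ways. Of 14 tested, 3 were called higher and 2 lower, beside 13.1% and 10.8% of all tested genes, and their median log2 fold change was -0.19. The calls came to 3 without db/db replicate 2 or db/m replicate 2. With total counts only the balance turned, to 2 higher and 5 lower. Nr1i2, the xenobiotic receptor PXR, fell to 5.94, 7.77 and 6.94 CPM in db/db, against 14.1, 14.0 and 12.3 CPM in db/m (log2 fold change -0.97, SE 0.15, edgeR adjusted p = 0.0049). Nr1h3, the oxysterol receptor LXR alpha, rose to 53.9, 58.4 and 55.0 CPM in db/db, against 34.1, 34.5 and 32.9 CPM in db/m (log2 fold change 0.72, SE 0.08, edgeR adjusted p = 0.0013). Neither receptor's groups overlapped. Nr3c1, the glucocorticoid receptor gene, fell by 0.45 on the log2 scale (SE 0.12, edgeR adjusted p = 0.035). Its call ended without db/db replicate 2 or 3 or any of the db/m libraries, at adjusted p from 0.0542 to 0.12. It also ended with a replicate block (adjusted p = 0.0824) and without replicate 3 of both genotypes (adjusted p = 0.203). Nfe2l2, the oxidative stress regulator, was at 72.1 ± 12.9 CPM in db/db and 96.0 ± 6.57 CPM in db/m (SD, n = 3 each) and was not called (edgeR adjusted p = 0.0618), but was called by DESeq2 (adjusted p = 0.0366) and without db/db replicate 3 (edgeR adjusted p = 0.0223). Cebpa, a liver and fat cell factor, was at 24.8 ± 3.35 CPM in db/db and 32.3 ± 3.23 CPM in db/m and was not called either (edgeR adjusted p = 0.0698).

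Enzymes and droplet proteins that share the substrates of the Ces enzymes also went both ways. Of 26 neutral lipid hydrolases and lipid droplet regulators 24 passed the filter, with a median log2 fold change of 0.21. Of these 6 were called higher and 2 lower, beside 13.1% and 10.8% of all tested genes. The calls came to 5 without db/db replicate 1. With total counts only the balance turned, to 4 higher and 9 lower. Lpl, which frees fatty acids from circulating lipoproteins, rose to 1186, 1096 and 1122 CPM in db/db, against 201, 177 and 182 CPM in db/m (log2 fold change 2.60, SE 0.09, edgeR adjusted p = 2.97e-05). Plin2, which coats lipid droplets, rose to 206 ± 19.9 CPM in db/db, against 108 ± 13.7 CPM in db/m (SD, n = 3 each, edgeR adjusted p = 0.00257). Abhd5, the activator of adipose triglyceride lipase, and Plin5, another droplet coat gene, were higher by 0.76 (SE 0.10, edgeR adjusted p = 0.0026) and 1.07 (SE 0.20, edgeR adjusted p = 0.0102) on the log2 scale. The call on Plin5 ended without replicate 3 of both genotypes, the fat-marker libraries, at adjusted p = 0.0634. Abhd6, a monoacylglycerol hydrolase gene, fell to 15.6, 15.2 and 17.4 CPM in db/db, against 42.7, 51.8 and 34.1 CPM in db/m (log2 fold change -1.42, SE 0.16, edgeR adjusted p = 0.0016).

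Other ester, amide and epoxide hydrolases numbered 16, of which 14 passed the filter, with a median log2 fold change of 0.13. Of these 4 were called higher and 2 lower, beside 13.1% and 10.8% of all tested genes. The calls came to 3 without db/db replicate 2, db/db replicate 3 or db/m replicate 2. With total counts only the balance turned, to 2 higher and 4 lower. Pon2, an intracellular lactonase, rose to 38.0, 36.8 and 39.4 CPM in db/db, against 13.4, 14.2 and 16.9 CPM in db/m (log2 fold change 1.36, SE 0.11, edgeR adjusted p = 0.000499). The soluble epoxide hydrolase gene Ephx2 rose to 558 ± 43.1 CPM in db/db, against 266 ± 34.6 CPM in db/m, whereas its microsomal counterpart Ephx1 fell to 58.2 ± 10.5 CPM in db/db, against 106 ± 11.8 CPM in db/m (SD, n = 3 each, edgeR adjusted p = 0.00157 and 0.00665). Bphl and Cmbl, which both activate ester prodrugs, were higher by 0.49 (SE 0.11, edgeR adjusted p = 0.0169) and 0.70 (SE 0.17, edgeR adjusted p = 0.0261) on the log2 scale. Both calls ended with total counts only (adjusted p = 0.0885 for Bphl and 0.0599 for Cmbl) and without db/db replicate 2 or 3 or db/m replicate 2 (adjusted p = 0.0539 to 0.0616 for Bphl and 0.0774 to 0.0858 for Cmbl). The call on Bphl also ended without db/db replicate 1 (adjusted p = 0.0529) and that on Cmbl without db/m replicate 3 (adjusted p = 0.06). That on Cmbl ended with a replicate block as well (adjusted p = 0.0617). Without replicate 3 of both genotypes both calls ended (adjusted p = 0.11 for Bphl and 0.145 for Cmbl).

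Among the 3 KDEL receptor genes, whose products return retained enzymes to the endoplasmic reticulum, 2 were called higher and 0 lower by edgeR. Over all tested genes these shares were 13.1% and 10.8%. At an unadjusted p below 0.05, 0 of the 3 receptor genes were lower. Kdelr1 was at 134 ± 4.74 CPM in db/db and 101 ± 0.376 CPM in db/m (SD, n = 3 each, log2 fold change 0.41, edgeR adjusted p = 0.00709). Kdelr2 was at 65.2 ± 3.11 CPM in db/db and 53.9 ± 2.41 CPM in db/m (edgeR adjusted p = 0.0423). With total counts only both calls ended (adjusted p = 0.127 for Kdelr1 and 0.917 for Kdelr2), and that on Kdelr2 also ended without any single library (adjusted p = 0.0681 to 0.117). Upper quartile scaling, no filter and a replicate block ended that on Kdelr2 too (adjusted p = 0.0622, 0.0703 and 0.109). Without replicate 3 of both genotypes both calls ended (adjusted p = 0.0565 for Kdelr1 and 0.127 for Kdelr2). Kdelr3 was at 1.46 ± 0.930 CPM in db/db and 1.15 ± 0.377 CPM in db/m and was not called.

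**Figure D5:**
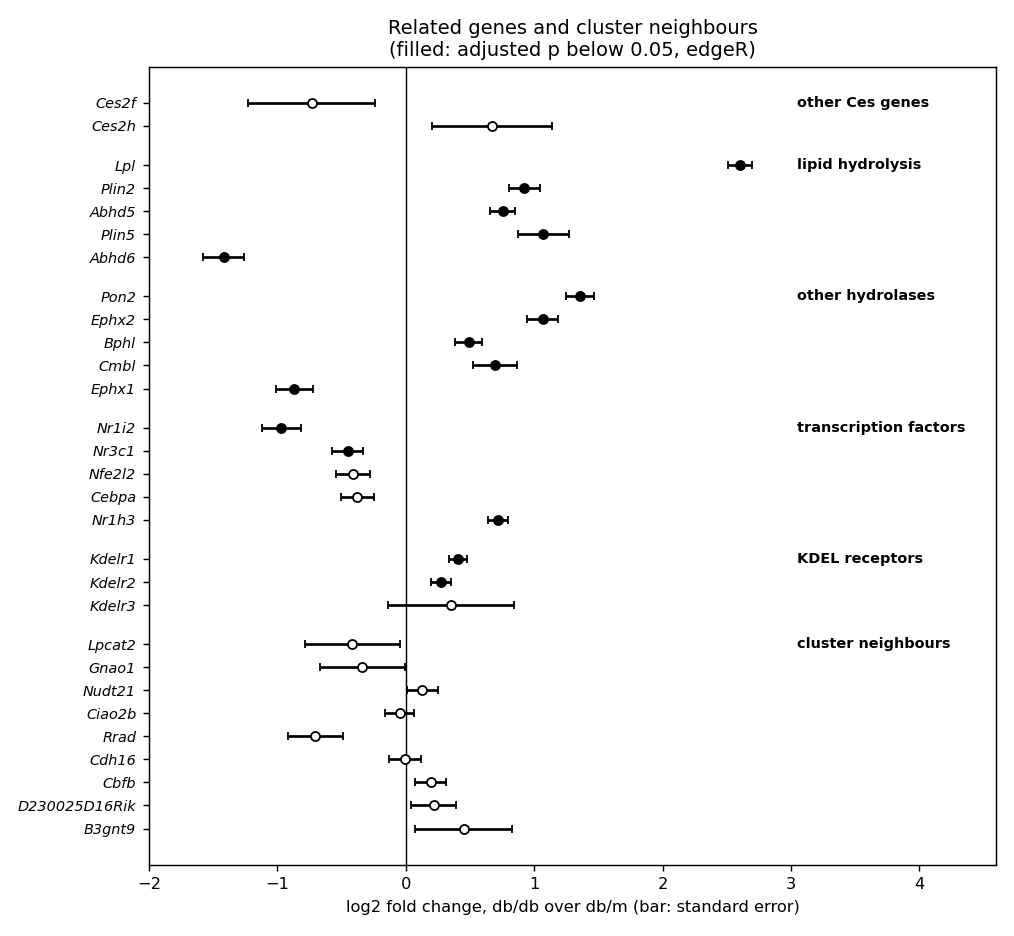
Log2 fold change of db/db over db/m, with bars for the standard error, for the genes named from each list and for the tested neighbours of the clusters; filled points have an adjusted p below 0.05 (edgeR), and open points do not. Lpl stands furthest right, and all 9 neighbours are open.

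The genes whose profiles were most like those of the 4 members with a log2 fold change of at least 1 were found among 11054 genes by the root mean square difference of centred log2 CPM over the 6 libraries. A profile shared by genotype alone makes genes alike by this measure. Those nearest to Ces1f were Cyp4b1 (0.130), Acy3 (0.147) and Bik (0.173). Cyp4b1, a fatty acid hydroxylase gene, averaged 5446 CPM in db/db and 796 CPM in db/m, and Acy3, an aminoacylase gene of the proximal tubule, 3680 CPM in db/db and 545 CPM in db/m. The nearest to Ces2c were Tlcd2 (0.0813), Rsph3b (0.163) and H2ac18 (0.167), and to Ces2b Kif20b (0.205), Tmem267 (0.241) and Akr1c14 (0.295). Profiles near Ces1g were far less alike, with Cyp2j13 at 1.39, Kap at 1.39 and Mettl7a3 at 1.45. Ces1g had 51, 0 and 21 counts in db/m, where log2 values are uncertain, so its distances are less certain too. Among the members themselves, Ces1f stood 16th by likeness to Ces2b, at 0.607, while Ces2c stood 107th, at 1.05. By this measure the member closest to Ces2b was thus Ces1f rather than Ces2c, its nearest copy in sequence. The measure includes the size of the fold, with log2 fold changes of 3.84 for Ces2b, 2.96 for Ces1f and 1.68 for Ces2c. Within each genotype, Ces2b and Ces2c had the same highest and the same lowest library, and Ces1f had others.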

How the data were processed

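Whole kidney RNA from 3 db/db and 3 db/m libraries was measured. The authors deposited whole-number counts per gene symbol in 1 table, not normalised, with a column per library. The submitters' processing notes name HISAT2, StringTie, SAMtools, fastp, FastQC and DESeq2. Not given in the sources used here are their roles, the genome build, the annotation and how reads were counted. In the deposited counts the value 2 occurred 4164 times and the value 1 occurred 1318 times, so some fragments may add more than 1 count. Of 24434 rows, 729 had no count.

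Low counts were filtered with filterByExpr, leaving 16373 genes. Libraries were TMM-scaled and compared with edgeR 4.0.16 (quasi-likelihood test, R 4.3.3, no covariates, Benjamini-Hochberg over all tested genes, adjusted p below 0.05), and the procedure was tested on simulated data. Standard errors (SE) were taken as the absolute log2 fold change over the square root of the F statistic. Depth was 25937756 to 35931140 counts per library.

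The members, the gene lists and the tests were chosen with earlier results of these data known. Named were all members, all other Ces genes, all neighbours (up to 3 protein-coding genes on each side of a cluster, of which 1 is not reported here), up to 5 genes per other list by smallest p (at most 4 in the direction most members moved), and the 3 genes most like each member with a log2 fold change of at least 1. Alternatives were other scalings, DESeq2 1.42.0, limma-voom (limma 3.58.1), no filter, a stricter filter (1 CPM and 10 counts in 3 libraries), removal of mitochondrial genes, near copies summed, a replicate block, each library left out, and both replicates 3 left out. Coding length in place of transcript length was added after seeing the data. Lengths and coding sequences came from GENCODE vM21, promoters from RefSeq.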

Additional observations from a re-analysis of the deposited data

How the results depend on the processing

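Ces1f, Ces1g, Ces2b, Ces2c and both family sums stayed higher and Ces2g lower in db/db under each alternative run. Their groups did not overlap, and the members were chosen on this contrast. Leaving out libraries could therefore hardly turn a sign, and the other settings refit the same 6 libraries. Ces1g moved to 7.82 with limma-voom. Total counts only shifted the median log2 fold change of all tested genes to -0.32, against -0.06 with TMM. There Ces2b moved to 3.59, Ces2c to 1.42 and the Ces2 sum to 1.31, about as far as that median. No other Ces gene was called under the alternatives run.

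Counts of calls moved more. Over all genes 3925 were called, against 5955 with total counts only (1072 higher and 4883 lower), 2246 to 3527 without single libraries and 1712 without both replicates 3. Lipid genes called were 13 with total counts only (4 higher and 9 lower), 5 to 9 without single libraries and 5 without both replicates 3. Other hydrolases called were 3 to 7 without single libraries and 3 without both replicates 3. Transcription factors called were 3 to 5 without single libraries and 3 without both replicates 3. KDEL receptors called were 1 with upper quartile scaling, 1 without the filter, 0 with total counts only, 1 without any single library and 0 without both replicates 3. Neighbours called were 1 (Rrad) with upper quartile scaling, total counts only, DESeq2, limma-voom and the strict filter, and 1 (Slc6a2, adjusted p = 0.0439) without the filter, where Rrad was not called (adjusted p = 0.0645). The cause of these shifts was not tested, although leaving out libraries leaves fewer samples.

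After the mean of each genotype was subtracted per gene, same-numbered libraries correlated at -0.15, 0.06 and 0.14. With 3 libraries per genotype, this cannot decide whether the numbers pair the samples. With the replicate block 2286 genes, 6 lipid genes, 5 other hydrolases, 3 transcription factors and 1 KDEL receptor were called. Per coding length, 7 of the 9 members kept their place in the order of levels in db/db and 7 in db/m. Counts were fewest, and levels least certain, for Ces1c and for Ces1g in db/m. Ces1g had 0 counts in db/m replicate 2, the deepest library at 35931140 counts. It had 51 in db/m replicate 1, the shallowest at 25937756 counts.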
